A study of Mus musculus with 3 samples.

Results

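In the E11.5 (embryonic day) library of mouse trunk, 218 of the 2013 cells with a Pdgfra transcript are described here. They held Tbx5, Emx2 or Hand2 transcripts and few or none of the marker transcripts of neighbouring mesenchymal classes. Pdgfra encodes a platelet-derived growth factor receptor found on most embryonic mesenchyme. A cell was a member when it held at least 1 unique molecular identifier (UMI, 1 count per captured transcript) of Pdgfra and at least 2 of Tbx5, Emx2 and Hand2 summed. It could hold at most 1 of Alx1 and Gsc summed, at most 1 of Pax1 and Pax9 summed, at most 1 of Upk3b, and none of Elavl3. Members were 10.83% of the Pdgfra cells (95% exact Clopper-Pearson interval 9.505 to 12.27) and came out of 6313 cells at E11.5 and 19567 cells in the whole series. The other 1795 Pdgfra cells served for comparison, and 884 of them met all the upper limits of the rule.

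Single-cell RNA libraries were made from mouse C3 to T2 trunk on 3 successive days, E11.5, then E12.5, then E13.5. Each stage is 1 library in which cells of 3 littermates were pooled after TrypLE dissociation, so there is no replicate and no test between groups. The labels name no strain, genotype or treatment. Intervals cover counting error only, and PCR or droplet effects are not in them.

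The lateral plate mesoderm splits in the early embryo into a somatic layer, which builds the body wall and the mesenchyme of the limb buds and girdles, and a splanchnic layer, which builds the wall of the gut, airways and heart. Tbx5 is a T-box factor required for forelimb and heart formation, Emx2 is a homeobox factor required for the scapula and the urogenital system, and Hand2 is a basic helix-loop-helix factor of posterior limb bud, branchial arch and heart. Alx1 and Gsc, homeobox genes, set off another mesenchymal class in the rule, Pax1 and Pax9 mark sclerotome, the somite part that builds vertebrae and ribs, Upk3b marks mesothelium and Elavl3 marks neurons. Prrx1, a homeobox gene of limb and body wall mesenchyme, was the 1 marker given for these cells that the rule did not use.

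Promoters are shown for the marker genes of these cells, because Emx2 and Hand2 each have a noncoding neighbour that also appears among the results and Prrx1 is the independent marker. The sequences are RefSeq windows of build GRCm38.p6, another build than that of the files, from 250 bases before to 50 after the gene's start, on the gene's strand. Of Tbx5, Emx2, Hand2 and Prrx1, 3 matched. The windows lie at chr19:59458440-59458739 on the plus strand (Emx2), chr8:57320733-57321032 on the plus strand (Hand2) and chr1:163313601-163313900 on the minus strand (Prrx1). Capitals mark 3 motifs searched on both strands: the E-box CANNTG read by factors such as HAND2 and TWIST1, the homeodomain motif TAATTA, and the T-box core AGGTGT.
Emx2: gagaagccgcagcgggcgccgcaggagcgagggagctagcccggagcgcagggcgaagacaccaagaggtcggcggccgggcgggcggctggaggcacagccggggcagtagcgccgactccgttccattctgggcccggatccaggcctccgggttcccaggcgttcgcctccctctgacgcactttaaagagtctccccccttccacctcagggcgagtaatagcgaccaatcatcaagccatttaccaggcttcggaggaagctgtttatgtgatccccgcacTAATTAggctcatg
Hand2: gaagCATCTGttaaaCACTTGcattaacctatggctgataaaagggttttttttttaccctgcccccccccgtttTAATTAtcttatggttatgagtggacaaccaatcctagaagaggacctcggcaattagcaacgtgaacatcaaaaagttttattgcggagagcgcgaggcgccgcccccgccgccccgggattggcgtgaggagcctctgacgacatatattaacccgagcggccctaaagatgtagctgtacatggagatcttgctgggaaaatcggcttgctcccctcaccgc
Prrx1: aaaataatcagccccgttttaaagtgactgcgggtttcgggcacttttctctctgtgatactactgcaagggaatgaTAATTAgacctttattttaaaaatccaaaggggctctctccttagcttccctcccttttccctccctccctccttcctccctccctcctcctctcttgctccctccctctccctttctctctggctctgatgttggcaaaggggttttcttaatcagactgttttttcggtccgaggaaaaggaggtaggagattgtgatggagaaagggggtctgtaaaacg
Each of the 3 windows held 1 TAATTA, a motif found in 5.3% of the 32817 promoter windows of this length. The Hand2 window held 2 E-boxes and the other windows 0, against 72.3% of all windows with at least 1. The T-box core was in none of the 3 windows and in 13.7% of all windows. The start of Hand2os1, the noncoding gene on the opposite strand, lies 124 bases from that of Hand2, and their windows overlap by 223 bases.

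The label was checked first. Prrx1 stood at 299 CPM (UMIs of the gene scaled to a common library total; 95% Poisson interval 281 to 318) in members and at 257 CPM (251 to 263) in the other Pdgfra cells, a log2 ratio of 0.22. After thinning each cell to 4000 UMIs, Prrx1 was detected in 58.7% of members (51.9 to 65.3) and 48.7% of the others (46.4 to 51.1). The same share was 0.806% in 124 erythroid cells and 1.72% in 1569 neurons, cells that should lack the gene. Without thinning the shares were 80.7, 72.2, 4.03 and 4.08%, at median depths of 14092, 14244, 25605 and 10058 UMIs. Prrx1 was therefore well above background in members, but it did not set them apart. Against the 884 other Pdgfra cells that met the upper limits, the log2 ratio of Prrx1 was -0.08. Within the members it was 410.1 CPM in the 115 with an Emx2 UMI and 185 CPM in the 103 without. The thinned shares of those groups were 77.4% (68.7 to 84.7) and 37.9% (28.5 to 47.96). Members with and without Emx2 thus differed in the marker that the rule did not use. By the rule, all members without Emx2 held Tbx5 or Hand2. The cells are called here by the rule genes they hold.

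The rule's own genes are given as a description. Tbx5 UMIs were present in 112 members, Emx2 in 115 and Hand2 in 88. Within the upper limits, 57 members held an Alx1 UMI, 26 a Gsc UMI, 5 a Pax1 UMI and 2 an Upk3b UMI. Alx1 was detected in 26.15% of members and 26.24% of the others, at 16.8 and 42.8 CPM. By combination, 29 members held Tbx5 alone, 73 Emx2 alone, 24 Hand2 alone, 50 Tbx5 with Hand2, 28 Tbx5 with Emx2, 9 Emx2 with Hand2 and 5 all 3 genes. Over all 2013 Pdgfra cells, 239 held both Tbx5 and Hand2, which is 52.4% of the Tbx5 cells and 65.5% of the Hand2 cells. Tbx5 and Emx2 met in 91 cells (20% of the Tbx5 cells and 31.1% of the Emx2 cells) and Emx2 and Hand2 in 44 (15% and 12.1%). The upper limits decided much of the membership. Of 580 Pdgfra cells with 2 or more UMIs of the 3 genes, 362 (62.4%) were taken out, 314 of them failing on Alx1 and Gsc and 250 on these alone. At the threshold, 51 members held a sum of exactly 2 UMIs, and 89 cells that met the other limits held 1. Prrx1 was 419 CPM in the first and 364 CPM in the second, Tbx15 47.5 and 42.3 CPM, Gata6 47.5 and 69.7 CPM, Foxd1 38.9 and 60.3 CPM. In the 795 cells with a sum of 0, Prrx1 was 310.3 CPM, Tbx15 and Gata6 were 8.10 CPM each and Foxd1 was 313 CPM. In the 167 members with a sum of 3 or more, Prrx1 was 268 CPM, lower than in these cells, Tbx15 40.5 CPM, Gata6 121 CPM and Foxd1 23.4 CPM.

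Depth did not separate members from the others, with medians of 3900 and 3914 genes per cell. Scrublet marked 1 member (0.459%) and 5.51% of the others as doublets. Barcodes shared between libraries numbered 10 (E11.5 and E12.5), 16 (E11.5 and E13.5) and 10 (E12.5 and E13.5), and 1 member shared its barcode with E12.5. Members were found in both sexes of the pooled litter, at 10.5% of the Pdgfra cells with Xist UMIs but none of Y-linked genes (8.79 to 12.4) and 12.7% of the Pdgfra cells with the converse pattern (10.1 to 15.7). Summed markers of other cells were mostly lower in members than in the other Pdgfra cells, and their part in the results was not tested. The neuron list stood at 119 against 436 CPM, with 8 of 8 tested genes at least 1.5-fold lower, which the limit on Elavl3 bears on. Against the cells that met the upper limits the neuron median was 0.10 on the log2 scale. The erythroid list stood at 135 against 3355 CPM (7 of 7 tested lower) and macrophage genes at 2.07 against 11.1 CPM. Among the other Pdgfra cells, 1 cell held 20842 of the 96231 erythroid UMIs, and 1 held 177 of the 319 macrophage UMIs. Cells with an erythroid UMI were 80.73% of members and 80.45% of the others. These shares were 2.75 and 2.12% for macrophage genes and 66.51 and 61.89% for neuron genes. Epithelial genes stood at 8.27 against 13.7 CPM and neural crest genes at 13.9 against 30.6 CPM (2 of 3 lower). Cells with a neural crest UMI were 14.68% of members and 14.54% of the others. The share was lower in members for epithelial genes (9.17 and 13.48%) and mesothelium genes (39.45 and 44.23%). Mesothelium genes stood at 155 against 209.6 CPM (2 of 5 higher and 2 lower), which the limit on Upk3b bears on. Against the cells that met the upper limits, 3 of 4 mesothelium genes were higher and 1 lower (median log2 1.36). Endothelial genes were at 29.5 against 24.4 CPM, with 1 tested gene, Egfl7, higher. In members 4 of 10 mesothelium genes had 0 UMIs, with Podxl at 0 against 107 UMIs and Upk1b at 0 against 43 UMIs in the larger comparison group, while Wt1 was 36 against 22.3 CPM and Krt8 38.1 against 22.2 CPM. Also at 0 were 4 of 8 macrophage, 6 of 8 epithelial, 3 of 9 neural crest and 2 of 8 endothelial genes, though several of these had few UMIs in the comparison cells too. Muscle progenitor genes (65.9 against 34.2 CPM, 3 of 7 higher and 4 lower) and cardiac genes (83.9 against 41.4 CPM, 3 of 3 higher) had higher sums in members, with Nppa at 0 UMIs. Of the 284 cardiac UMIs of members, 58 lay in 1 cell, and most of the Ttn UMIs also lay in 1 cell. One member carried 115 of the 119 Myog UMIs and 50 of the 51 Myod1 UMIs of the members, and without cells of 2 or more UMIs of these genes the log2 ratio of Myog went from 2.36 to -0.10. That setting was chosen after seeing the data.

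Members were compared with the other Pdgfra cells over 11046 genes with at least 100 UMIs, the rule's genes left out. The 25 genes with the highest ratios included Hoxd11, Hoxa10 and Hoxa9, the girdle factors Tbx15 and Shox2, and Gata4 and Gata5, besides genes of other kinds. The 15 lowest included Zic genes and Uncx, but Arg1, an arginase, had the lowest ratio among those with a UMI in members. With a gene called at 1.5-fold, 317 genes were higher (2.87% of those tested) and 739 lower (6.69%). On simulated counts of this comparison, 2.71% of unchanged genes passed 1.5-fold, a share to set beside these. Against the 884 cells that met the upper limits, 293 of 9351 genes were higher (3.13%) and 424 lower (4.53%). The 911 comparison cells that failed a limit are left out there.

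Hoxd11 had the highest ratio, at 19.2 CPM in members (14.8 to 24.5) and 2.51 CPM in the others (1.96 to 3.16), a log2 ratio of 2.94 (2.43 to 3.44). Hoxa10 was 20.97 CPM against 4.22 CPM and Hoxa9 25.99 CPM against 9.45 CPM. These Hox genes came from few cells: Hoxd11 UMIs were in 11 members, Hoxa10 in 21 and Hoxa9 in 44. In the list of Hox paralogue groups 9 to 13, 4 of 16 genes were tested, 3 were past 1.5-fold higher and 1 lower, with a median log2 of 1.89 against 0.01 over all genes tested. The exception was Hoxb9, at 11.2 against 44.7 CPM. Hox genes of groups 1 to 4, which pattern the hindbrain, neck and anterior trunk, went the other way. Of 11 tested, 8 were at least 1.5-fold lower and 0 higher, with a median of -0.76. Hoxd4 stood at 17.7 CPM in members and 66.2 CPM in the others, and Hoxd3 at 7.09 and 39.2 CPM. Hoxc4 was the 1 gene of the list above 0, at 96.6 against 84 CPM (log2 0.20). For groups 5 to 8, 3 of 10 were lower and 0 higher, with a median of -0.08.

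Noncoding transcripts beside Emx2 and Hand2 were high where those genes were, which the rule bears on. Emx2os, transcribed from the opposite strand at Emx2, was 19.8 CPM in members and 3.63 CPM in the others (log2 2.45, 1.98 to 2.91). Hand2os1 was 17.1 against 7.04 CPM. Gata6os, beside Gata6, a gene outside the rule, was 16.5 against 6.38 CPM. The strand setting of the counting is not stated in the sources, so such transcripts and their partners may share reads. E330013P04Rik, a noncoding gene, was 19.2 against 3.59 CPM and was found in 40 members.

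Of 16 proximal limb and shoulder girdle factors, 5 were past 1.5-fold higher in members and 0 lower, with a median log2 of 0.16. They included Tbx15, a T-box factor required for the scapula, Irx3 and Irx5, Iroquois factors of the early limb bud, and Shox2, a homeobox factor of the proximal limb skeleton. Tbx15 was 41.9 CPM in members (35.3 to 49.4) and 9.59 CPM in the others (8.49 to 10.8). It was detected in 26.1 and 8.86% of cells, or 12.4 and 3.90% after thinning, against 0% of thinned erythroid cells (0 of 124, where 3 cells would be 2.42%) and 0.128% of thinned neurons. Shox2 was 81.5 against 30.6 CPM and Irx5 72.7 against 34 CPM. Twist1, a helix-loop-helix factor of most mesenchyme, was close to even at 647 and 600.4 CPM. Meis1, a homeobox factor of proximal limb identity, was also within 1.5-fold, with a log2 ratio of -0.18. Among T-box genes outside the rule, 4 of 5 tested were higher and 1 lower. Tbx2 (44.3 against 28 CPM), Tbx3 (81.2 against 50.3 CPM) and Tbx18 (35.5 against 18.3 CPM) joined Tbx15, while Tbx1 was 3.54 against 25.8 CPM.

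Among visceral mesoderm genes 7 of 12 tested were higher and 3 lower, with a median log2 of 0.85. Gata6, a zinc finger factor of splanchnic mesoderm and heart, was 106 CPM in members (95.4 to 118) and 45.96 CPM in the others (43.5 to 48.5). Gata5 was 15.9 against 4.50 CPM, Gata4 12.4 against 4.18 CPM and Hlx, a homeobox gene of visceral mesenchyme, 18.6 against 5.34 CPM. Foxf1, a forkhead factor of splanchnic mesoderm, had a log2 ratio of -0.23, and Foxf2, its paralogue, was at 0.591 against 6.56 CPM with 2 UMIs in members. Nkx6-1 was among the lowest genes, with 1 UMI in members. The list thus did not move as 1 block. Its median was -0.07, over 8 tested genes, when the comparison cells were those without Tbx5, Emx2 or Hand2. Against the cells that met the upper limits it was 1.25, over 6 tested genes. These medians are not of the same genes. Applying the rule to cells thinned to 4000 UMIs left 75 members and put the ratios of Hlx, Gata4, Lhx2, Bst2 and Rhox5 below 0. Over all 218 members these genes had 63, 42, 73, 39 and 28 UMIs, in that order. No interval is given for the reversed ratios. Of the 40 genes named by rank, 34 kept their side of 1.5-fold.

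Connective tissue factors had 4 of 9 tested higher and 2 lower (median 0.57). Ebf1, a factor of mesenchymal and adipose precursors, was 34.9 against 185 CPM. WNT pathway genes had 6 of 17 tested higher and 1 lower (median 0.36). The ligand Wnt2 was 53.2 against 23.8 CPM, the secreted agonist Rspo1 34.3 against 12.4 CPM, the antagonist Dkk1 30.1 against 13.4 CPM and the antagonist Frzb 2.95 against 7.18 CPM. Axin2, a common target of the pathway, was 28.4 against 32.95 CPM, within 1.5-fold. Of 10 retinoic acid genes 3 were lower and 0 higher. The synthesis enzyme Aldh1a2 was 56.1 against 137 CPM. FGF genes had 0 of 9 higher and 3 lower, BMP genes 1 of 15 higher and 2 lower, hedgehog genes 0 of 9 higher and 2 lower. Fibroblast matrix genes had 2 of 18 higher and 1 lower, with Col1a1, a chain of type I collagen, at 456 against 312 CPM. Distal limb genes had 3 of 10 higher and 3 lower (median -0.05), with the LIM homeobox gene Lhx9 at 45.2 against 17.9 CPM and the BMP target Msx2 at 25.7 against 56.9 CPM. Cartilage and bone factors had 1 of 7 higher and 2 lower, with the cartilage collagen Col2a1 at 75.3 against 172 CPM. Tendon genes had 0 of 6 higher and 1 lower, and brown adipose regulators 1 of 6 higher and 1 lower. For the cell cycle, 0 of 20 S phase genes and 0 of 20 G2 and M phase genes passed 1.5-fold. S phase genes were above 0 for 18 of 20 (median 0.15) and G2 and M phase genes below 0 for 20 of 20 (median -0.15).

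Further genes chosen by rank were Calb2, a calcium-binding protein (49.9 against 9.38 CPM), the chemokine Cxcl14 (68.2 against 19.7 CPM), smooth muscle actin Acta2 (272 against 88.9 CPM), and the LIM homeobox gene Lhx2 (21.6 against 5.26 CPM). Hlx was detected in 24 members and Lhx2 in 16, and 1 member held 43.6% of the Bst2 UMIs.

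**Figure D1:**
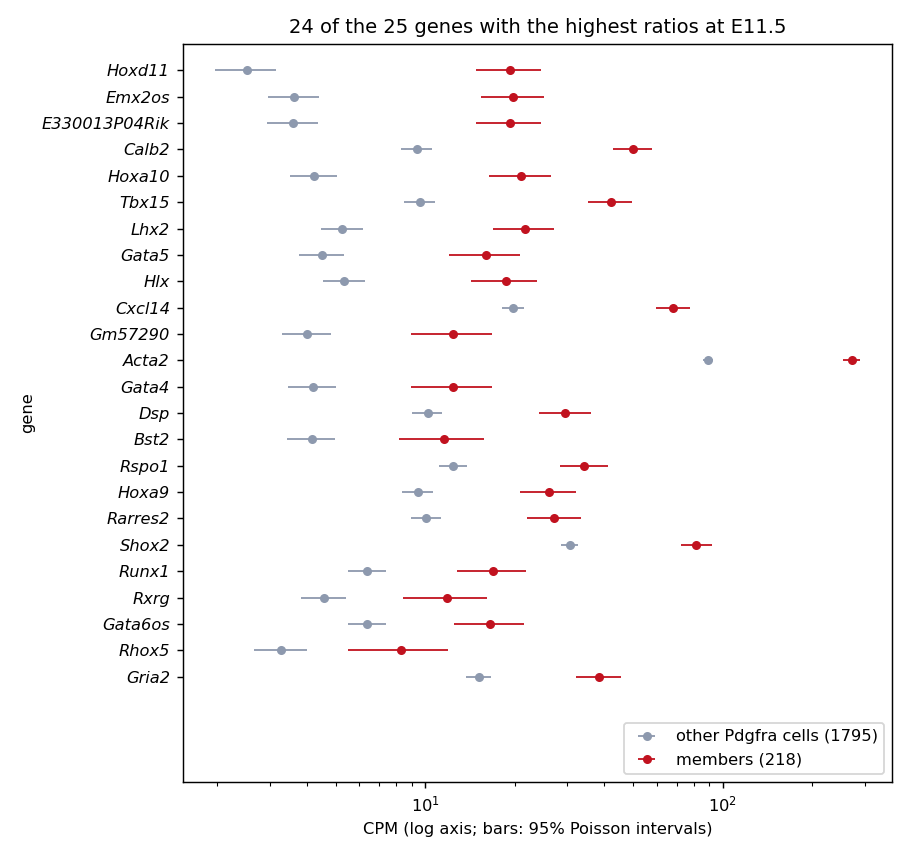
CPM on a log axis for 24 of the 25 genes with the highest ratios of members (red, 218 cells) to other Pdgfra cells (grey, 1795 cells) at E11.5, with 95% Poisson intervals. The groups stand farthest apart for Hoxd11, at 19.2 and 2.51 CPM, while Acta2, at 272 CPM, is the most abundant of those plotted in members.

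Somite and sclerotome genes outside the rule had 6 of 10 tested lower and 1 higher, with a median log2 of -1.08. Foxd1, a forkhead factor of somite and kidney mesenchyme, was 26.6 CPM in members (21.4 to 32.7) and 250.2 CPM in the others (244 to 256). Foxc1, required for axial skeleton, was 31.3 against 108 CPM and Uncx, of posterior sclerotome, 1.18 against 27.3 CPM. Both are lower too among cells that met the upper limits on Pax1 and Pax9, with log2 ratios of -2.06 and -3.97. Meox2, a homeobox gene of somite and limb muscle, was within 1.5-fold at 78.3 against 63.2 CPM. Tbx18, which marks anterior somite compartments and also lateral plate derivatives, was the gene above the threshold. The zinc finger genes Zic1 (19.2 against 209.8 CPM), Zic2 and Zic4 of dorsal somite and neural tube were all among the 15 lowest. Hspa12a had 0 UMIs in members and was at least 5.98-fold lower, taking 3 UMIs as the floor over the group. Arg1, Nkx6-1, Lamc3 and D630003M21Rik had 1 UMI each in members.

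**Figure D2:**
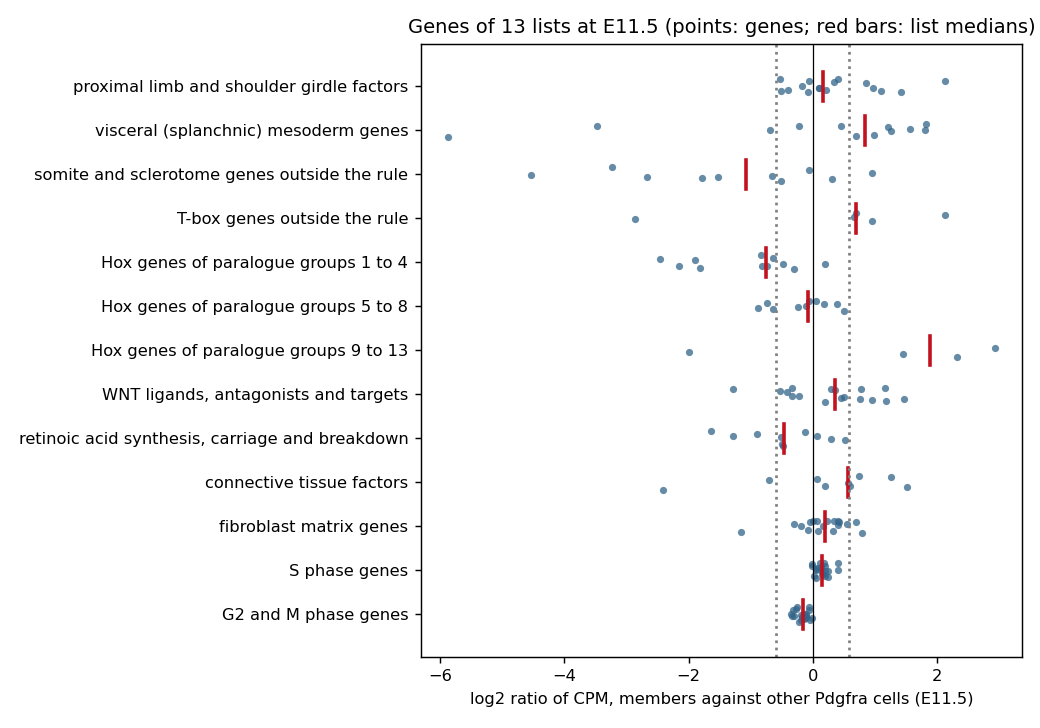
Log2 ratio of CPM of members to other Pdgfra cells at E11.5 for each tested gene (blue points) of 13 lists, with list medians as red bars and dotted lines at 1.5-fold. The medians of Hox groups 9 to 13 (1.89) and of Hox groups 1 to 4 (-0.76) lie on opposite sides of 0, and cell cycle genes lie between the dotted lines.

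Levels also varied among the members. Genes were ranked in the subsets with UMIs of 1 rule gene alone, each against the other 2 subsets, over 6714 genes with at least 30 UMIs. At 1.5-fold, 540 genes (8.04%) were higher with Tbx5 alone, 543 (8.09%) with Emx2 alone and 708 (10.5%) with Hand2 alone. The subsets hold 29, 73 and 24 cells, so single cells weigh heavily. At 30 UMIs per gene counting error weighs too. The share of unchanged genes that would pass 1.5-fold was not estimated for these subsets.

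In the 73 cells with Emx2 alone, Hmx1, a homeobox gene, stood at 52.8 CPM with 55 UMIs and had 0 UMIs in the other 2 subsets, at least 14.2-fold higher over a floor of 3 UMIs. The LIM homeobox gene Lhx9 was 87.3 against 4.94 CPM, Foxd1 62.4 against 3.71 CPM, Calb2 102 against 7.42 CPM, Dmrt2, a gene of somite and dermomyotome, 46.1 against 4.94 CPM, and Fibin 356 against 48.2 CPM. E330013P04Rik was 48.9 against 1.24 CPM and was found in 41.1% of these cells. Fibin was detected in 75.3% of them, the widest of these 8 genes.

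In the 29 cells with Tbx5 alone, Hoxa10 was 76.3 against 4.93 CPM, the homeobox gene En1 57.8 against 5.64 CPM, Rarres2, which encodes the chemoattractant chemerin, 67.03 against 9.16 CPM and Tbx18 120.2 against 19.7 CPM. Myl4, a myosin light chain of atrium and embryonic muscle, was 55.5 against 4.23 CPM, the keratin gene Krt8 55.5 against 9.16 CPM and the neurotrophic ligand Nrtn 64.7 against 7.05 CPM. One cell held 81.5% of the Fgfbp3 UMIs of this subset.

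In the 24 cells with Hand2 alone, Hand2os1 stood at 85.02 CPM, with UMIs in 11 cells, and had 0 UMIs in the other 2 subsets, at least 41.8-fold higher. Dkk1 was 178 against 3.39 CPM, Lhx2 138 against 2.71 CPM, Hlx 71.7 against 3.39 CPM and Msx1, a homeobox target of BMP signals, 63.8 against 4.75 CPM. Socs2, a cytokine signalling inhibitor, was 122 against 14.9 CPM and was found in 58.3% of these cells. The imprinted zinc finger gene Plagl1 was 388 against 53.6 CPM. Lhx2 came from 6 cells and Msx1 from 4.

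Levels in cells with 2 rule genes varied with the genes they held. Gata6 was 1.92 CPM with Emx2 alone and 2.15 CPM with Tbx5 and Emx2, but 116 CPM with Tbx5 alone, 202 with Hand2 alone and 252 with Tbx5 and Hand2. Wnt2, a ligand of lung and heart mesenchyme, was 4.80 and 0 CPM in the first pair of subsets and 62.4, 37.2 and 153 CPM in the other 3. Meox2 went the other way, at 153 and 121 CPM with Emx2 and 67.03, 5.31 and 19.7 CPM without. Prrx1 was 440.4 CPM (401 to 483) with Emx2 alone, 379 with Tbx5 and Emx2, 176 with Tbx5 alone, 314 with Hand2 alone and 133 (110.1 to 160.1) with Tbx5 and Hand2. The 14 members with both Emx2 and Hand2, 5 of them with Tbx5 too, were unlike the other Emx2 cells in some genes. They had Gata6 at 62.7 CPM (33.4 to 107), with 13 UMIs from 14.3% of the cells, Meox2 at 4.82 CPM (0.122 to 26.9), Wnt2 at 9.64 CPM (1.17 to 34.8) and Prrx1 at 328 CPM (254 to 416).

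**Figure D3:**
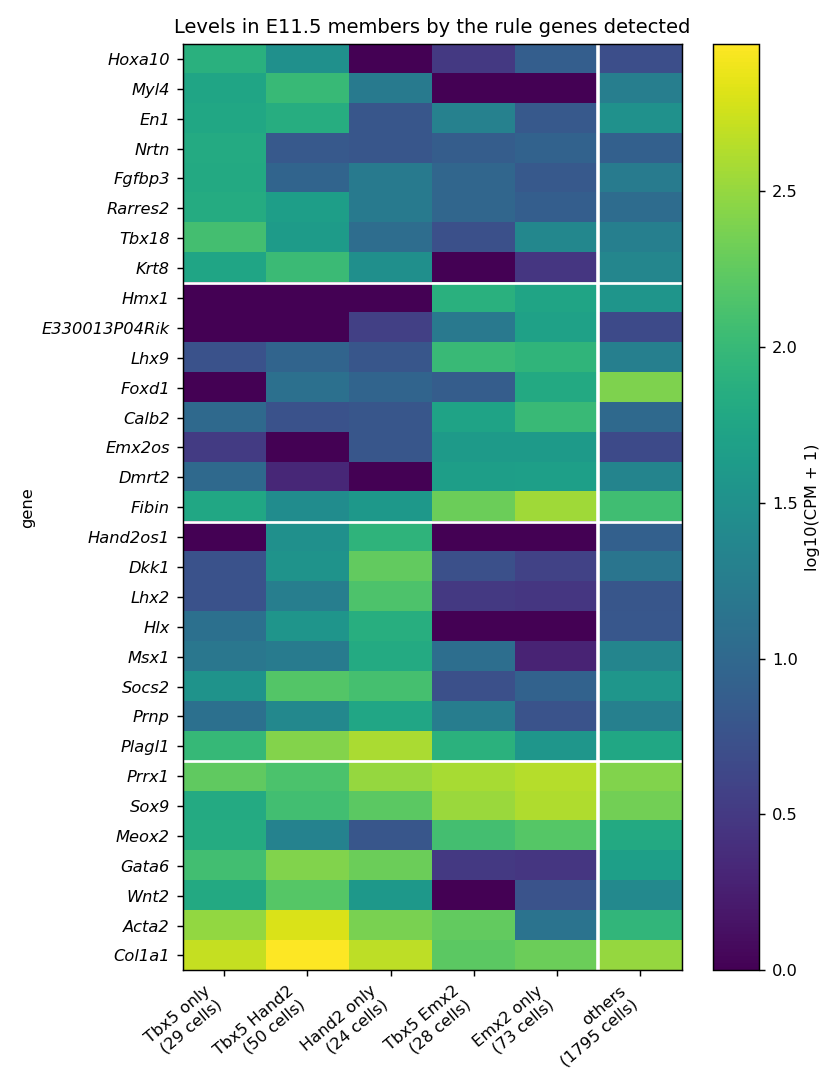
Log10(CPM + 1) at E11.5 in members by the rule genes detected (5 columns, cell numbers below) and in the other Pdgfra cells (last column), for the 8 genes ranked for each single-gene subset and 7 further genes. Gata6 is dark in both columns with Emx2 (1.92 and 2.15 CPM; the 14 members with both Emx2 and Hand2 are not plotted), and Hand2os1 is brightest with Hand2 alone (85.02 CPM).

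The members were therefore also split by 1 or more Emx2 UMIs, a choice made after seeing the data. This sets Emx2 cells against cells that the rule requires to hold Tbx5 or Hand2. Over 8435 genes with at least 30 UMIs, 617 (7.31%) were at least 1.5-fold higher in the 115 members with Emx2 and 692 (8.2%) lower. With at least 100 UMIs per gene the shares were 4.16 and 4.2%. Visceral mesoderm genes were lower with Emx2 for 7 of 9 tested and higher for 0, with a median log2 of -4.38 against 0.01 over all genes. Gata6 was 9.34 CPM with Emx2 and 205 without, Hlx 0.583 and 37.1, Hand1 0.583 and 17.9. Foxf1, Gata4 and Tbx20 had 0 UMIs with Emx2. Fibroblast matrix genes were lower for 8 of 15 and higher for 0, with Col1a1 at 198 and 719.8 CPM and the matrix glycoprotein Tnc at 17.5 and 220.2 CPM. Acta2 was 89.3 and 458 CPM. Mesothelium genes were lower for 4 of 4, with Wt1 at 17.5 and 55.04 CPM. The BMP feedback gene Bambi was 51.3 and 369.8 CPM, and BMP genes were lower for 5 of 11 and higher for 0.

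Somite genes were higher with Emx2 for 4 of 7 tested and lower for 1 (median 0.63). Meox2 was 127 and 28.7 CPM, the somite factor Tcf15 54.3 and 24.5 CPM, Foxd1 44.9 and 7.78 CPM and Tbx18, the exception, 16.3 and 55.04 CPM. These levels stood below or near those in Pdgfra cells selected by Pax1 and Pax9, where Meox2 was 144 CPM and Foxd1 627.5 CPM. Girdle factors were higher for 5 of 16 and lower for 2. Tbx15 was 60.7 and 22.7 CPM and Irx5 103 and 41.3 CPM. Connective tissue factors were higher for 3 of 7, with Tcf4, a widely expressed helix-loop-helix factor, at 676 and 315 CPM. Sox9, the factor required for cartilage, was 351 and 115 CPM. Posterior Hox genes were lower with Emx2, Hoxa10 at a log2 ratio of -2.33 and Hoxd11 at 3.50 and 35.3 CPM, whereas Hoxc5 was 78.8 and 29.3 CPM. Of 20 S phase genes 0 passed 1.5-fold (median 0.08), and of 20 G2 and M phase genes 1 was lower (median -0.04). Among muscle genes 2 of 3 were higher with Emx2 and 1 lower, but 1 cell with Tbx5 and Emx2 held 165 of the 223 muscle gene UMIs of all members.

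The share of members with Emx2 differed between the sexes of the pooled littermates beyond counting error. Emx2 was detected in 38.7% of the 119 members with Xist UMIs but none of Y-linked genes (29.9 to 48.02) and in 71.2% of the 73 with the converse pattern (59.5 to 81.2). Sex and littermate cannot be told apart here. Within each class the split was still present. In Xist cells Gata6 was 14.7 CPM with Emx2 and 196 CPM without, and in Y-linked cells 1.29 and 230.4 CPM. Prrx1 was 391 and 191 CPM in the first and 429 and 178 CPM in the second. Meox2 was 111 and 37.9 CPM in the first and 161 and 8.23 CPM in the second. The ratio of members to other Pdgfra cells differed with the class for Dsp (-0.52 on the log2 scale in Y-linked cells) and Runx1 (-0.32 there), both higher in members overall.

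Members were also set against Pdgfra cells with 2 or more UMIs of Alx1 and Gsc (181 cells) and of Pax1 and Pax9 (251 cells), each within the other limits of the rule. Against the Alx1 and Gsc cells, 176 of 6605 genes were higher in members (2.66%) and 107 lower (1.62%). Tbx15 was 41.9 CPM in members and 6.81 CPM there (log2 2.62), Gata6 106 and 36.3 CPM, and Foxd1 26.6 and 204 CPM. Prrx1 was 299 and 320.0 CPM. Against the Pax1 and Pax9 cells, 393 of 7154 genes were higher (5.49%) and 322 lower (4.5%). Prrx1 was 299 and 92.5 CPM (log2 1.69), Irx5 72.7 and 2.08 CPM, and Shox2, at 81.5 CPM in members, had 0 UMIs there. Girdle factors were higher in members than in the Pax1 and Pax9 cells for 8 of 15 and lower for 0, and somite genes lower for 7 of 8 and higher for 1. Against the Alx1 and Gsc cells these lists were mixed. Girdle factors were higher for 4 of 15 and lower for 2 (median -0.10), with a summed level of 2932 CPM in members and 3101 CPM there. Somite genes were higher for 2 of 7 and lower for 3, and T-box genes higher for 2 of 5 and lower for 1. G2 and M phase genes were past 1.5-fold lower for 8 of 20 against the Pax1 and Pax9 cells. Against the Alx1 and Gsc cells 0 of 20 were.

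The same rule found 592 of 2508 Pdgfra cells in the E12.5 library (23.6%, 21.9 to 25.3). In the E13.5 library it found 549 of 3255 (16.9%, 15.6 to 18.2). Members were a larger share in both later libraries, where the upper limits took out less. Pdgfra cells with 2 or more UMIs of Tbx5, Emx2 and Hand2 summed numbered 580 of 2013 at E11.5. They were 769 of 2508 at E12.5 and 603 of 3255 at E13.5. The limits took out 62.41, 23.02 and 8.955% of them in order of stage. Stage and library cannot be told apart. At E12.5, 276 of 11857 genes were higher in members (2.33%) and 715 lower (6.03%), and at E13.5 197 of 11835 were higher (1.66%) and 380 lower (3.21%). Of the 25 genes highest at E11.5, 19 were tested at E12.5, where 14 were past 1.5-fold higher and 1 lower. Of 20 tested at E13.5, 7 were higher and 1 lower. Of the 15 lowest, 15 of 15 tested were lower at E12.5 and 7 of 10 at E13.5.

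Hoxd11 and Hoxa10 were higher in members at each stage. Hoxd11 was 21.2 against 3.25 CPM at E12.5, then 10.3 against 1.82 CPM, and Hoxa10 31.6 against 7.11 CPM and 34.8 against 8.05 CPM. Shox2 was 229 against 56.3 CPM at E12.5, then 152 against 65.8 CPM. Foxd1 was lower, at 14.5 against 155 CPM and 8.54 against 42.7 CPM. In the same order, Hox groups 9 to 13 had 4 of 6 and 5 of 6 genes higher, and groups 1 to 4 had 5 of 10 and 3 of 10 lower. Other genes were past 1.5-fold at fewer stages. By stage, Calb2 had log2 ratios of 2.41, 1.54 and -0.34, and Tbx15 of 2.13, 0.63 and 0.33. Visceral mesoderm genes had a median of 0.85, -0.11 and 0.29, over 12, 8 and 5 tested genes. Gata5 stood under 1 CPM in members at both later stages (0.703 and 0.688 CPM). Prrx1 had log2 ratios of 0.22, 0.20 and -0.10.

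The split by Emx2 was also computed in the later libraries, over genes with at least 100 UMIs in members. Emx2 was detected in 48.3% of members at E12.5 and 52.8% at E13.5, beside 52.75% at E11.5. The share of genes past 1.5-fold was 4.16% higher and 4.2% lower at E11.5, 1.71 and 1.83% at E12.5, then 1.23 and 1.52%. Of 189 genes higher with Emx2 at E11.5 and tested at E12.5, 16 (8.47%) were past the fold in the same direction there and 9 in the opposite one. Of 192 lower genes, 17 (8.85%) were past it in the same direction and 6 in the opposite one. Among the 4680 genes tested at both stages the shares past the fold at E12.5 were 0.662% higher and 0.919% lower. At E13.5, 4 of 179 higher genes (2.23%) and 17 of 187 lower genes (9.09%) were past it in the same direction, and 5 and 1 in the opposite one, against 0.28% and 0.667% of the 4644 genes tested.

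Gata6 was lower with Emx2 at each stage, at 9.34 and 205 CPM, 20.7 and 89.1 CPM, and 46.7 and 75.7 CPM in order of stage. Cxcl14 was higher at each stage, at 122 and 13.2 CPM, 330.0 and 128 CPM, and 216 and 104.5 CPM. Col1a1 and Prrx1 came close to even in the later libraries, with log2 ratios of -0.15 and 0.09 at E12.5. Sox9 lay on both sides of 0, at log2 1.61, -1.06 and 0.26 in order of stage.

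**Figure D4:**
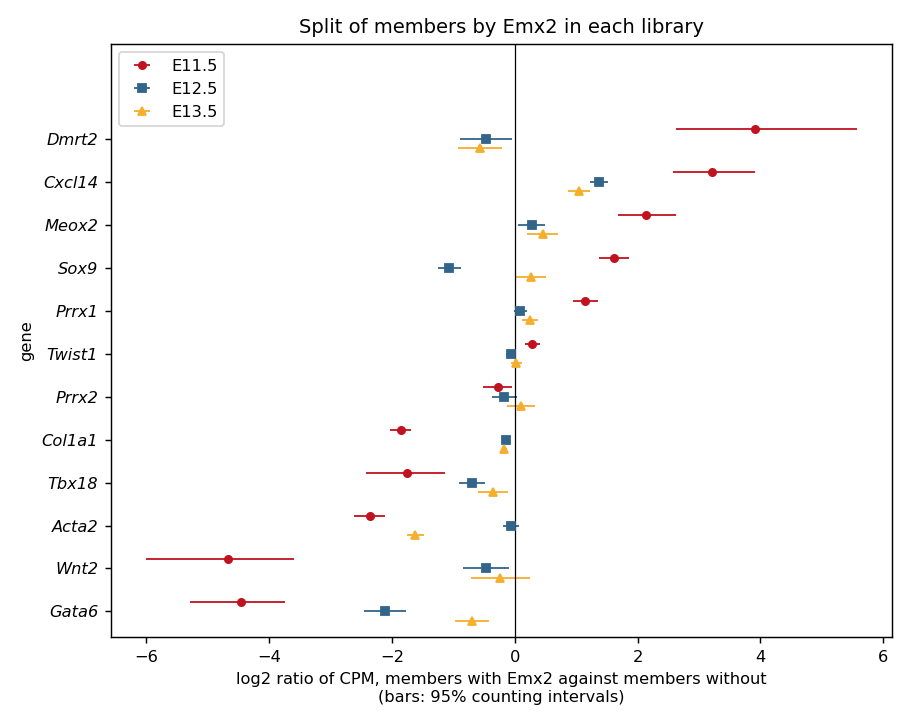
Log2 ratio of CPM of members with Emx2 to members without, for 12 genes in the E11.5 (red circles), E12.5 (blue squares) and E13.5 (yellow triangles) libraries, with 95% counting intervals. Gata6 lies left of 0 and Cxcl14 right of 0 at each stage, while Sox9 goes from 1.61 at E11.5 to -1.06 at E12.5.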

How the data were processed

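Single-cell libraries of C3 to T2 trunk (1 per stage, 3 littermates pooled, 10x Genomics 3' kit version 3.1) were deposited as UMI counts per gene and barcode. The authors made these counts with Cell Ranger 8.0.1 on GRCm39, per the submitters' processing notes. The gene annotation release and strand setting are not given in the sources used here. Every barcode was listed, so cells were barcodes with at least 4000 UMIs, no fewer than 500 genes, and mitochondrial UMIs of 10% or less. The libraries held 103383215, 94155624 and 113402193 UMIs and gave 6313, 6140 and 7114 cells.

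Levels are summed UMIs scaled to CPM, with exact Poisson intervals, and log2 ratios have exact conditional binomial intervals, at 95%. With 1 library per stage no test was made. A gene was called at 1.5-fold, and a change smaller than the library spread could not be judged. Shares of cells with a UMI were taken after thinning each cell to 4000 UMIs. The 25 highest and 15 lowest ratios were named among genes with at least 100 UMIs and a UMI in at least 5% of cells of the higher group. For each single-gene subset the 8 highest were named (at least 30 UMIs and 10% of cells), and genes of 29 lists served as further examples. Xist, Y-linked, haemoglobin and mitochondrial genes were not ranked. Doublets were called with scrublet in scanpy 1.11.5 and kept. The free RNA share at E11.5 was estimated at 1.87%, from haemoglobin genes. On simulated counts of the comparison of members with other Pdgfra cells (11028 genes), 96% of 2-fold and 100% of 3-fold genes were called, and 2.71% of unchanged genes passed 1.5-fold. The members and lists were chosen with earlier results of these data known. Some genes are not reported here.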

Additional observations from a re-analysis of the deposited data

Results flagged for a closer look

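Some genes had ratios of members to other Pdgfra cells that lay on opposite sides of 0 at E11.5 and at a later stage, with each past 1.5-fold. These differences between stages were not tested, since each stage is 1 library. The log2 ratio at E12.5 minus that at E11.5 was -2.24 for Bst2, -2.15 for Des and -1.58 for Egfl7. For Wif1, a WNT antagonist, the ratio at E13.5 minus that at E11.5 was -1.58. Muscle genes made up most of the rest. The differences at E12.5 and at E13.5 were -3.77 and -2.95 for Myod1, -4.20 and -4.30 for Myog, -3.19 and -1.87 for Tnni1 and -2.42 and -2.60 for Ttn. At E11.5, 1 member held 96.6% of the Myog UMIs, 98.04% of the Myod1 UMIs and 84.0% of the Ttn UMIs, and 43.6% of the Bst2 UMIs were in 1 member.

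Outside the comparison, 113 cells at E11.5 held no Pdgfra UMI and met the rest of the rule. Their Prrx1 level was 302 CPM, Tbx15 30.1 CPM, Gata6 65.9 CPM and Foxd1 3.84 CPM. Their median depth was 12941 UMIs.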

How the results depend on the processing

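No paired analysis was possible because each stage is a single library. For members among Pdgfra cells (10.8%), the share was 7.63% with the rule applied to cells thinned to 4000 UMIs, 8.3% at a sum of at least 3, 15.3% at a sum of at least 1 and 12.7% in cells with Y-linked UMIs alone. The log2 ratio of Prrx1 (0.22) was -0.07 with thinned cells and -0.08 against cells that met the upper limits. It was 0.04 and 0.33 at sums of at least 3 and 1, 0.02 in Xist cells, 0.37 in Y-linked cells and 0.05 in cells with a low G2 and M phase sum. Genes higher in members (317) numbered 939 with 20 UMIs per gene, 4955 with every gene and 77 at 2-fold. Genes lower in members (739) numbered 1677, 2607 and 352 there, 424 against cells within the upper limits and 459 in Y-linked cells. List medians past 1.5-fold (10 of 26 lists) numbered 5 in cells of 8000 to 20000 UMIs and 6 in Y-linked cells. Reversed log2 values with thinned cells (75 members) were -1.61 for Lhx2, -1.01 for Hlx, -0.86 for Gata4, -1.35 for Bst2 and -1.71 for Rhox5. In Y-linked cells (73 members) they were -0.52 for Dsp and -0.32 for Runx1. The muscle list median became 0.13 at a sum of at least 1 and 0.16 without called doublets. Against cells without the 3 genes it was 0.14, and the visceral median was -0.07 over 8 tested genes. The neuron median became 0.10 within the upper limits and the erythroid median 0.38 in cells with a low G2 and M phase sum. The causes were not tested. Leaving out cells with 2 or more Myod1 and Myog UMIs, chosen after seeing the data, gave 299 higher and 728 lower genes.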
